A study of Mus musculus with 9 samples.

Results

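The lysosomal cathepsins and cystatin C form a group of 10 genes, chosen by symbol: Ctsa, Ctsb, Ctsc, Ctsd, Ctsh, Ctsk, Ctsl, Ctss, Ctsz and Cst3. They were followed through the apex of the newborn mouse heart on the day after surgery. All 10 were among the 14479 genes with deposited expression values, and all 10 were among the 13249 that were tested. RNA was sequenced in 9 libraries from CD-1 mice, with 3 after sham surgery, 3 after removal of the ventricular apex (resection) and 3 after the same resection with the left vagus nerve cut (vagotomy). All mice were operated on at postnatal day 1 and their hearts collected at postnatal day 2. The lowest part of the ventricular apex was taken as whole tissue, so each library mixes muscle, stromal, vascular and blood-derived cells. The study has no group with vagotomy and an intact apex, so the effect of vagotomy was measured only in resected hearts. Whether each library came from its own pup is not said in the labels, and p-values measure only the spread between these samples, which may be technical.

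Cathepsins are the proteases of the lysosome, the acidic compartment in which cells break down proteins taken up from outside or delivered by autophagy. Most are cysteine proteases of the papain family (Ctsb, Ctsc, Ctsh, Ctsk, Ctsl, Ctss and Ctsz), whereas Ctsd is an aspartic protease and Ctsa a serine carboxypeptidase. Cystatin C, the product of Cst3, is a secreted inhibitor that binds cysteine cathepsins outside the cell. Macrophages are rich in these enzymes, and cathepsins released into wounded tissue can cleave elastin and collagen.

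Expression is given in FPKM, a fragment count scaled to transcript length and library size, so levels can be compared between genes. Read depth is not known from such values. Means are followed by ± SD, with n = 3 in each group. Differences are on the log2(FPKM + 1) scale, where low genes appear to move less than they did. Each adjusted p comes from limma's moderated test, two-sided and corrected by Benjamini and Hochberg's method for 13249 genes, and a gene was called at an adjusted p under 0.05.

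The libraries had similar median levels (7.52 to 8.29 FPKM over all listed genes). Heart muscle markers were abundant, with a sum over 10 genes of 16178 to 46202 FPKM, although Myh6 and Actc1 were listed at 0 in all 3 vagotomy libraries. By the authors' deposited tables, the group values of the liver genes Alb, Apoa1 and Afp were at most 0.143 FPKM. A further liver gene, Ttr, had deposited library values, was at 0 in some library and was not among the tested genes. The median of 79 ribosomal protein genes ranged from 59.6 FPKM in resection replicate 3 to 153 FPKM in resection replicate 1. Resection replicate 1 also lay above replicate 3 for Cst3 (308 and 117 FPKM) and Ctsz (71.3 and 31.8 FPKM). For Ctsh it lay below replicate 3 (14.1 and 32.7 FPKM). The part of this spread in the results was not tested.

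In sham hearts the 10 transcripts covered a wide range of levels. Ctsd (195 ± 35.3 FPKM) and Cst3 (157 ± 37.5 FPKM) were the most abundant, and their ranges over libraries overlapped. Below them came Ctsl (69.5 ± 10.9 FPKM), and then Ctsb (52.9 ± 0.469 FPKM) and Ctsa (48.9 ± 16.3 FPKM), which overlapped each other. Ctsz stood at 27.6 ± 7.71 FPKM and Ctsh at 10.7 ± 2.9 FPKM, both clear of their neighbours in this order. Ctsc (7.03 ± 0.733 FPKM) and Ctss (5.63 ± 2.24 FPKM) overlapped, and Ctsk was the lowest at 3.14 ± 0.331 FPKM. Ctsd was first and Ctsk last of the 10 in all 9 libraries. Ctss moved most in this order. It was the 8th or 9th gene in the sham libraries, the 7th or 8th in the resection libraries and the 5th or 6th in the vagotomy libraries.

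Among the 10 genes, cathepsin S rose after resection, and cathepsins S, L and C were higher after resection with vagotomy than after sham surgery. All 10 had a higher mean after resection than after sham, with a median difference of 0.57 against -0.01 over all tested genes, of which 48.6% had a positive difference. Of the 10, 1 was called, against 0.294% of all tested genes (0.287% higher), and 4 had an unadjusted p under 0.05, against 5.89%. For 6 of the 10 (Ctsb, Ctsc, Ctsd, Ctsk, Ctsl and Ctss) all 3 resection libraries lay above all 3 sham libraries, which held for 6.36% of tested genes. Against sham, the vagotomy group had 3 called genes of 10, all higher, where 10.1% of tested genes were called (5.81% higher), and 6 had an unadjusted p under 0.05, against 30.1%. All 10 differences were positive, against 51.8% of tested genes, with a median of 0.85 against 0.03. The vagotomy libraries lay wholly above the sham libraries for 6 genes (Ctsc, Ctsd, Ctsh, Ctsk, Ctsl and Ctss), against 19.7% of tested genes. Between vagotomy and resection alone, 0 of the 10 were called by limma, where 3.52% of tested genes were (1.97% higher), 8 of 10 had a positive difference against 51.6%, and 2 (Ctss and Ctsl) had an unadjusted p under 0.05, against 24.2%. The groups were apart for these same 2 genes, both higher after vagotomy, against 14% of tested genes. Any pair of these comparisons shares the libraries of 1 group, such as sham in the first 2, so their differences are not independent. By limma's moderated F-test for any difference among the 3 groups, 3 of the 10 were called (Ctss, adjusted p = 0.000937, Ctsc, 0.0298, and Ctsl, 0.0305), against 5.89% of tested genes. Only Ctss was called without any 1 of the sham libraries or without vagotomy replicate 1. Ctss and Ctsk were called without vagotomy replicate 2, and Ctss and Ctsc without vagotomy replicate 3.

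**Figure D1:**
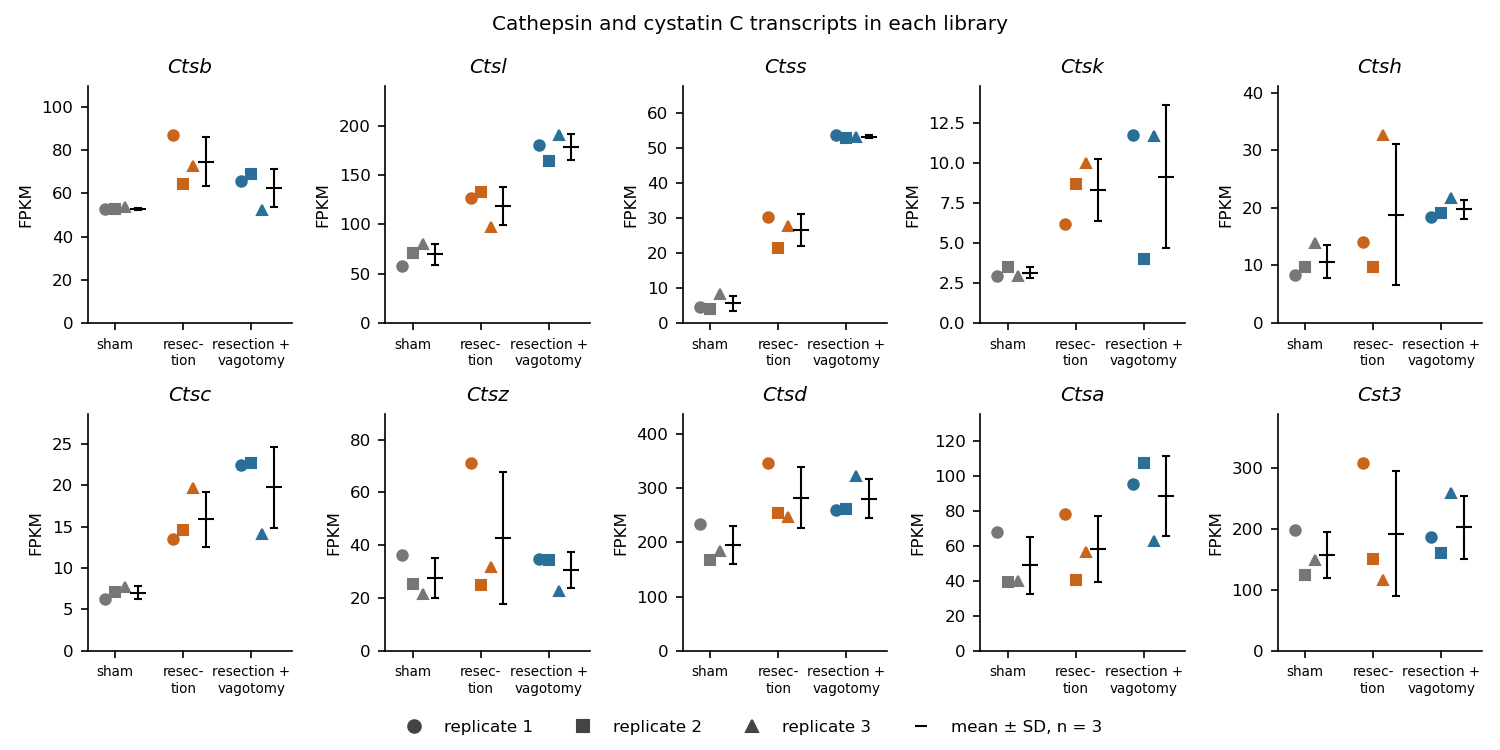
FPKM of each gene (vertical axis, from 0) in the 3 sham, 3 resection and 3 resection with vagotomy libraries; symbols mark replicates, and bars show the mean ± SD of n = 3. Ctss climbs in separate steps from 3.99 to 8.19 FPKM in sham to 53.1 to 53.8 FPKM after vagotomy, whereas the groups of Cst3 and Ctsz overlap.

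Cathepsin S is an endopeptidase of antigen-presenting cells that trims the invariant chain of MHC class II, and it stays active at neutral pH. Ctss (ENSMUSG00000038642, chromosome 3, 95526786 to 95556403, GRCm38, plus strand) stood at 4.73, 3.99 and 8.19 FPKM in the sham libraries, at 30.3, 21.5 and 27.9 FPKM after resection, and at 53.8, 53.1 and 53.1 FPKM after resection with vagotomy. The 3 groups did not overlap at either step, an ordering that Ctsl shared and that 0.634% of all tested genes showed. Ctss rose 4.71-fold by the ratio of means after resection, with a log2 difference of 2.09 (SE 0.27, 95% confidence interval 1.49 to 2.70, adjusted p = 0.011). It was 9.46-fold higher after vagotomy than in sham (log2 difference 3.09, SE 0.27, adjusted p = 0.000379). The vagotomy mean was 2.01 times the resection mean, and that log2 difference of 0.99 (SE 0.27, interval 0.39 to 1.60) did not pass the threshold (adjusted p = 0.0694). It passed with the replicate number as a block (adjusted p = 0.0403) and with a pseudocount of 5 (0.0495), and its adjusted p ranged from 0.0403 to 0.22 over all alternatives. In tissue RNA, more cells of a type and more RNA per cell cannot be told apart. The call for resection was lost without sham replicate 1 (adjusted p = 0.0721), sham replicate 2 (0.0839) or resection replicate 3 (0.0804), and when only the 6 libraries compared were fitted (0.0817). Over all alternatives its adjusted p ranged from 0.00706 to 0.0839 and its log2 difference from 1.58 to 2.35. The call against sham after vagotomy held in all 19 alternatives.

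Promoter sequences from RefSeq (GRCm38.p6) were matched for 8 of the 10 genes (Ctsa, Ctsc, Ctsd, Ctsk, Ctsl, Ctss, Ctsz and Cst3). Those of Ctss and Ctsc are shown as the 250 bases before the start of transcription, 5′ to 3′, with capitals for GAGGAA or its reverse complement TTCCTC. The motif holds the GGAA core bound by ETS-family factors such as PU.1, the product of Spi1 in myeloid cells.
Ctss, chr3:95526536-95526785, plus strand: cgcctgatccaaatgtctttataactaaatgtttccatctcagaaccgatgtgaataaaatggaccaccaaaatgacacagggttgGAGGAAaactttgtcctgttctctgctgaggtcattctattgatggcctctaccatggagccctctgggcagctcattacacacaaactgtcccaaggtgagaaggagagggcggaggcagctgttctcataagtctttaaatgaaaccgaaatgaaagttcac
Ctsc, chr7:88277835-88278084, plus strand: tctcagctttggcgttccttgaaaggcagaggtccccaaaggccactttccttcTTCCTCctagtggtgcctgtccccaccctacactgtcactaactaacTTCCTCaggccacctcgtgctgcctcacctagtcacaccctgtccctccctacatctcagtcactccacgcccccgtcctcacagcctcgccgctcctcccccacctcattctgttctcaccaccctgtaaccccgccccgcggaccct
Both strands of the 300-base windows (250 bases before the start and 50 after) were searched. GAGGAA was present for 4 of the 8 matched genes (Ctsc, Ctsk, Ctss and Cst3) and for 31.3% of all 27025 genes with a window, and 33.9% of 56 other lysosomal genes held it. Of the genes called against sham after vagotomy, Ctss and Ctsc held it and Ctsl did not. Ctsk and Cst3 held it and were not called. In Ctss the capitals begin 164 bases before the start, and in Ctsc 196 and 149 bases before it. Ctss holds another match, as TTCCTC, that begins at the start itself and so lies outside the bases shown. A match is a description of the letters and not of a bound site.

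Cathepsin L is a broad lysosomal endopeptidase and is needed for normal heart muscle in mice. Ctsl (ENSMUSG00000021477, chromosome 13, 64359337 to 64370890, minus strand) stood at 58.0, 71.0 and 79.7 FPKM in sham, at 126, 133 and 97.2 FPKM after resection, and at 181, 164 and 191 FPKM after vagotomy. Each group lay above the one before it with no overlap. The difference of vagotomy from sham was 1.36 (SE 0.25, adjusted p = 0.0144), a 2.57-fold ratio of means. It did not pass without sham replicate 2 (adjusted p = 0.0755) or sham replicate 3 (0.0542). The log2 differences of resection from sham (0.76, adjusted p = 0.456) and of vagotomy from resection (0.59, adjusted p = 0.183) were not called.

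Cathepsin B, an endopeptidase that also removes dipeptides from the end of proteins, had a different pattern. Ctsb (ENSMUSG00000021939, chromosome 14, 63122462 to 63145923, plus strand) stood at 52.7, 52.6 and 53.5 FPKM in sham, at 87.0, 64.2 and 72.8 FPKM after resection and at 65.7, 68.8 and 52.3 FPKM after vagotomy. The sham libraries agreed within 1.02-fold and lay below all resection libraries, while vagotomy libraries overlapped both groups. No difference of Ctsb was called (0.48 for resection against sham, adjusted p = 0.966, and -0.26 for vagotomy against resection, adjusted p = 0.538). The ratio of Ctsl to Ctsb was 1.31 ± 0.197 in sham, 1.62 ± 0.394 after resection and 2.93 ± 0.648 after vagotomy, with no overlap between the vagotomy libraries (2.39 to 3.65) and the others (1.10 to 2.07).

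Cathepsin K is the collagen-degrading enzyme of osteoclasts and is also made by activated fibroblasts and macrophages. Ctsk (ENSMUSG00000028111, chromosome 3, 95499256 to 95509362, plus strand) stood at 2.95, 3.52 and 2.94 FPKM in sham, at 6.18, 8.65 and 10.01 FPKM after resection and at 11.7, 3.98 and 11.7 FPKM after vagotomy. All 6 resected libraries lay above sham, but vagotomy replicate 2 was close to the sham values. The resection mean was 2.64 times the sham mean (log2 difference 1.15, SE 0.36, adjusted p = 0.416), and the difference of vagotomy from sham was 1.17 (adjusted p = 0.0642). Without vagotomy replicate 2 the latter was 1.62 and was called (adjusted p = 0.0247). Of the 7 osteoclast markers, Calcr, Ocstamp and Dcstamp had group values of at most 0.0414 FPKM in the authors' deposited tables. The other 4 summed to 13.4 to 17.9, 14.02 to 20.9 and 14.6 to 22.9 FPKM in sham, resection and vagotomy libraries, and 0 of 3 tested were called by limma in any comparison, with 1, 0 and 1 at an unadjusted p under 0.05 for resection against sham, vagotomy against resection and vagotomy against sham. For resection against sham it was Acp5, at 1.09 ± 0.571, 4.01 ± 2.01 and 4.16 ± 1.79 FPKM in sham, resection and vagotomy libraries. Car2, a larger part of the sum, stood at 9.65 ± 1.19, 7.69 ± 1.28 and 9.85 ± 1.66 FPKM.

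The genes of the exopeptidases Ctsc, Ctsh and Ctsz differed from each other. Cathepsin C removes dipeptides and activates the serine proteases of neutrophil and mast cell granules. Ctsc (ENSMUSG00000030560, chromosome 7, 88278085 to 88310888, plus strand) stood at 6.26, 7.13 and 7.72 FPKM in sham, at 13.5, 14.5 and 19.7 FPKM after resection and at 22.4, 22.7 and 14.1 FPKM after vagotomy. Sham was below every other library. Ctsc was 2.80-fold higher after vagotomy than in sham (log2 difference 1.34, SE 0.26, adjusted p = 0.0165), a call lost without sham replicate 2 (adjusted p = 0.0793), sham replicate 3 (0.0669) or vagotomy replicate 2 (0.0517). Against sham, resection gave 2.26-fold by the means (log2 difference 1.06, SE 0.26, adjusted p = 0.204). Of 11 genes listed for the granules in which cathepsin C acts, 6 were in the expression matrix and 2 of them were tested. For Elane, Ctsg, Gzma, Gzmb and Mcpt4, which were outside the matrix, the authors' deposited tables gave group values of at most 0.329 FPKM. Of those tested, the mast cell gene Cpa3 stood at 2.45 ± 1.37, 1.15 ± 0.067 and 0.795 ± 0.69 FPKM in sham, resection and vagotomy libraries. The granule proteoglycan gene Srgn stood at 8.48 ± 3.57 FPKM in sham, 67.4 ± 56.7 FPKM after resection and 26.6 ± 3.87 FPKM after vagotomy, and 0 of the 2 were called by limma between any pair of groups, with 1, 0 and 2 at an unadjusted p under 0.05. By limma's F-test for any difference among the 3 groups Srgn was called (adjusted p = 0.0324).

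Cathepsin H is an aminopeptidase, and cathepsin Z removes single residues from the carboxyl end. Ctsh (ENSMUSG00000032359, chromosome 9, 90054152 to 90076089, plus strand) stood at 8.37, 9.74 and 13.9 FPKM in sham, at 14.1, 9.66 and 32.7 FPKM after resection and at 18.5, 19.1 and 21.6 FPKM after vagotomy. Resection replicate 3 was 3.38-fold above resection replicate 2, and the vagotomy libraries, which differed by 1.17-fold at most, lay above sham (log2 difference 0.85, adjusted p = 0.166). Ctsz (ENSMUSG00000016256, chromosome 2, 174427493 to 174439039, minus strand) stood at 36.2, 25.2 and 21.4 FPKM in sham, at 71.3, 25.1 and 31.8 FPKM after resection and at 34.6, 34.5 and 22.6 FPKM after vagotomy. Its groups overlapped throughout, and resection replicate 1 was the highest of the 9 libraries. Its differences were 0.50 for resection against sham and -0.35 for vagotomy against resection, both with an adjusted p of at least 0.618.

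Cathepsins D and A are not cysteine proteases and are not targets of cystatin C. Cathepsin D is the main aspartic protease of the lysosome. Ctsd (ENSMUSG00000007891, chromosome 7, 142375911 to 142388038, minus strand) stood at 235, 167 and 185 FPKM in sham, at 347, 254 and 247 FPKM after resection and at 260.1, 261 and 322 FPKM after vagotomy. Both resected groups lay above sham, by 1.45-fold and 1.44-fold in their means, and neither log2 difference was called (0.53, adjusted p = 1.0 and 0.53, adjusted p = 0.224). Between vagotomy and resection the log2 difference was 0.00 (95% confidence interval -0.61 to 0.61). Cathepsin A also protects the lysosomal enzymes neuraminidase and beta-galactosidase from degradation. Ctsa (ENSMUSG00000017760, chromosome 2, 164832873 to 164841032, plus strand) stood at 67.7, 39.3 and 39.6 FPKM in sham, at 78.0, 40.3 and 56.5 FPKM after resection and at 94.99, 107 and 62.7 FPKM after vagotomy. Of the vagotomy libraries 2 were above every other library and the third lay among the rest, with a log2 difference from sham of 0.85 (interval 0.09 to 1.61, adjusted p = 0.127).

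Both Ctsd and Ctsa carry the letters TCACGTGA near a RefSeq start. That palindrome holds the E-box CACGTG and lies within the CLEAR element, the lysosomal gene motif read by the transcription factor TFEB. The stretches are shown as 30 bases, 5′ to 3′ on the gene's strand, with CACGTG in capitals.
Ctsd, chr7:142387908-142387937, minus strand, 98 bases before a RefSeq start: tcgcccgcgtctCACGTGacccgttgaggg
Ctsa, chr2:164833749-164833778, plus strand, 12 bases before a RefSeq start: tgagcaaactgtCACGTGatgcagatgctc
Ctsl, chr13:64370739-64370768, minus strand, 236 bases before a RefSeq start: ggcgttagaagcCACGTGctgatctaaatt
All 3 stretches shown lie inside the GENCODE gene spans given here, and the 250 bases before each of these RefSeq starts overlap annotated exons of longer transcripts (2 for Ctsd, 3 for Ctsa and 1 for Ctsl). A further CACGTG, not flanked by T and A, lies 245 bases before the same Ctsd start and outside the gene span. In Ctsa another begins 5 bases after the start used here. Ctsa has another RefSeq window at the start of its gene span, and that window holds no CACGTG. The 6 letters CACGTG were found for 3 of the 8 matched genes (Ctsa, Ctsd and Ctsl) and for 8.09% of all 27025 genes with a window. The 8 letters TCACGTGA were found for Ctsa and Ctsd and for 1.12% of all genes. Both motifs are palindromes, and the shorter lies within the longer one. Among 56 other lysosomal hydrolase, membrane and proton pump genes with a window, 15 held CACGTG (26.8%) and 8 held TCACGTGA (14.3%).

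Cystatin C passed no test. Cst3 (ENSMUSG00000027447, chromosome 2, 148871722 to 148875692, minus strand) stood at 198, 125 and 149 FPKM in sham, at 308, 151 and 117 FPKM after resection and at 187, 161 and 259 FPKM after vagotomy. All groups overlapped. The log2 differences were 0.19 for resection against sham (95% confidence interval -0.67 to 1.04), 0.17 for vagotomy against resection (-0.68 to 1.02) and 0.36 for vagotomy against sham (-0.50 to 1.21). Without resection replicate 1 the first of these was -0.22. That library had the highest value of its group for 6 of the 10 genes (Ctsa, Ctsb, Ctsd, Ctss, Ctsz and Cst3), and the highest ribosomal protein median of all 9 libraries. Sham replicate 1 had the highest value of its group for 4 of those 6 (Ctsa, Ctsd, Ctsz and Cst3), with a ribosomal protein median of 110 FPKM against 80.2 and 119 FPKM in the other sham libraries.

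The summed level of the 7 cysteine cathepsins was 177 ± 9.53 FPKM in sham (169 to 187), 306 ± 38 FPKM after resection (277 to 349) and 373 ± 12.3 FPKM after vagotomy (366 to 387), with no overlap between groups. The sum divided by Cst3 was 1.17 ± 0.279 in sham, 1.82 ± 0.685 after resection and 1.92 ± 0.454 after vagotomy, and the resection libraries overlapped both other groups, while the vagotomy libraries (1.41 to 2.28) lay just above sham (0.853 to 1.39). Within the sum, Ctss made up 3.16% ± 1.08 in sham, 8.67% ± 0.89 after resection and 14.3% ± 0.352 after vagotomy. The share of Ctsb was 30.02% ± 1.33, 24.4% ± 0.989 and 16.7% ± 2.26 in the same order, and neither share overlapped between groups. Ctsl held 39.3% ± 4.39, 39.2% ± 7.82 and 47.8% ± 3.77. These sums were formed over genes picked by name and are given as descriptions without a test.

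**Figure D2:**
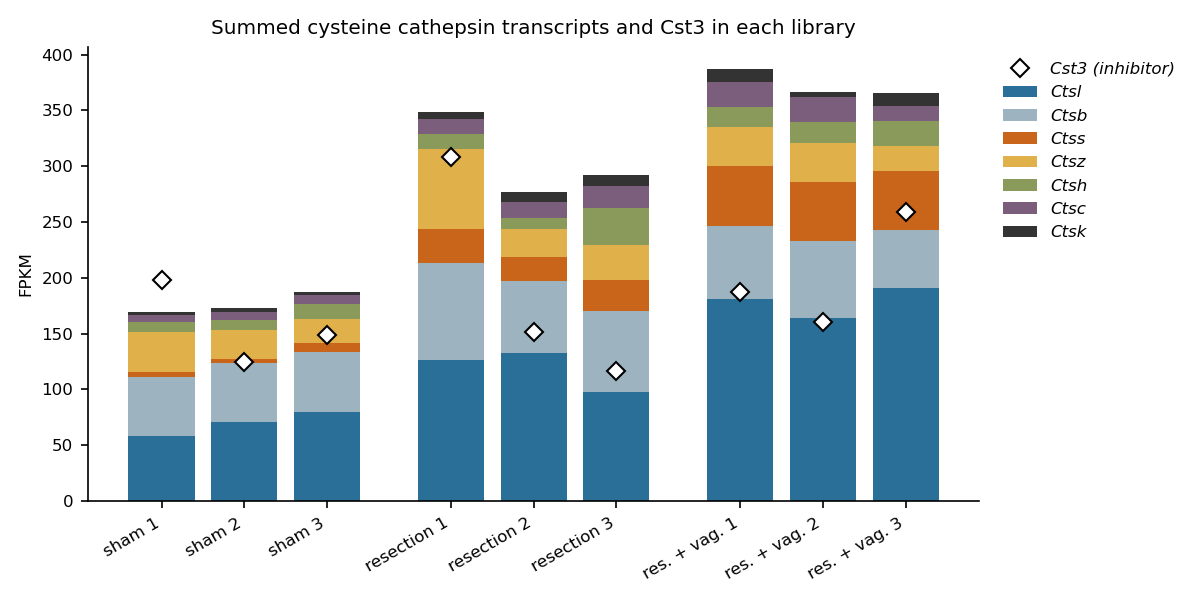
Stacked bars give the FPKM of the 7 cysteine cathepsin genes in each of the 9 libraries, and diamonds give the FPKM of the inhibitor gene Cst3 in the same library. The bars reach 169 to 187 FPKM in sham, 277 to 349 FPKM after resection and 366 to 387 FPKM after vagotomy, while the diamonds overlap between groups.

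**Figure D3:**
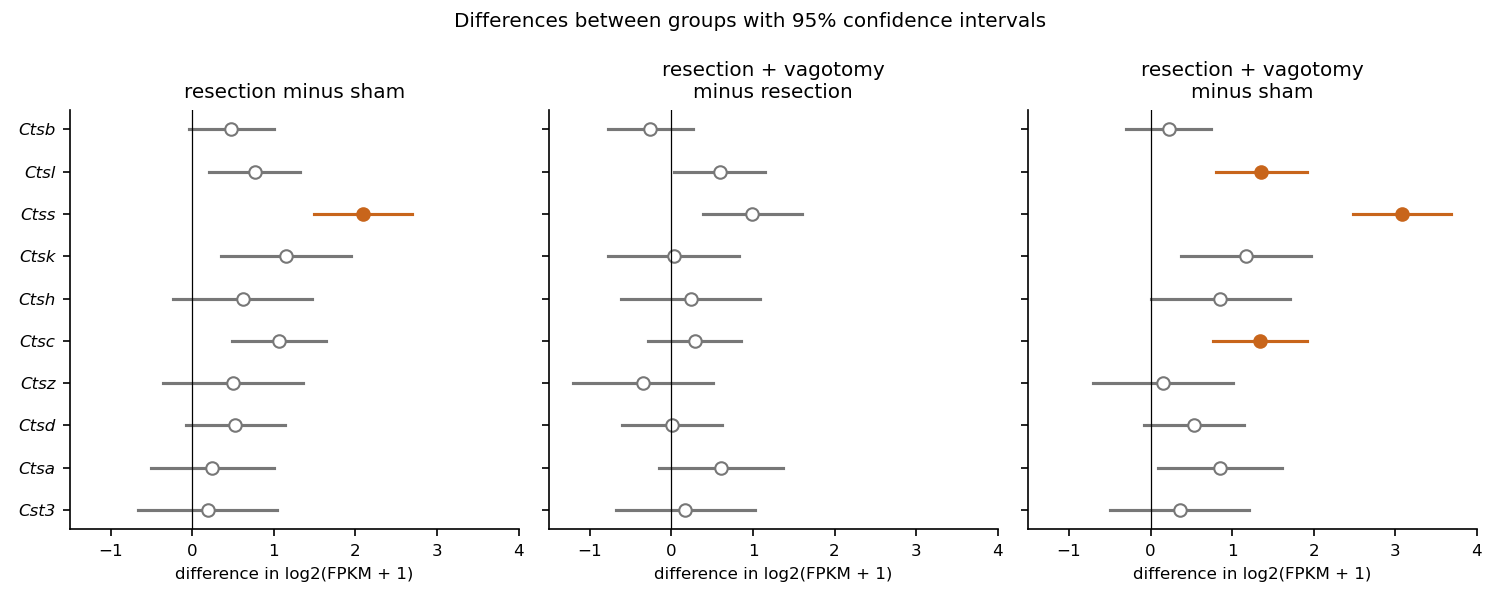
Points are differences in log2(FPKM + 1) between group means from limma, and lines are 95% confidence intervals; filled orange points have an adjusted p under 0.05 over all 13249 tested genes. Ctss is filled for resection against sham, no gene is filled for vagotomy against resection, and Ctss, Ctsl and Ctsc are filled for vagotomy against sham.

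The authors' deposited Cuffdiff tables called 4 of the 10 genes for resection against sham, all higher: Ctss (q = 0.00161), Ctsk (q = 0.00161), Ctsc (q = 0.00161) and Ctsl (q = 0.00297). There, 6.12% of 14011 tested genes were called and 4.18% were called higher. For vagotomy against resection the authors' deposited table called Ctss (26.5 to 53.1 FPKM, q = 0.000995) and gave q = 0.0669 for Ctsl, where 17.1% of 14083 tested genes were called and 8.52% were called higher.

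Some markers of macrophages and of neutrophils were called in each of the 3 comparisons, and markers of heart muscle only in those with vagotomy. The summed level of 25 macrophage markers was 102 to 137 FPKM in sham, 307 to 566 FPKM after resection and 407 to 483 FPKM after vagotomy, and none of the 25 was listed at 0 in any library. Of 24 tested, 6 rose after resection, among them the scavenger receptor gene Msr1 (2.08 ± 0.994 to 12.6 ± 4.74 FPKM, adjusted p = 0.0241) and the integrin gene Itgam (1.92 ± 1.76 to 16.4 ± 5.45 FPKM, adjusted p = 0.0382), with a median log2 difference of 1.06. After vagotomy against sham 11 of 24 rose, and against resection 1 did, the signalling adaptor Tyrobp (19.8 ± 8.55 to 69.4 ± 17.5 FPKM, adjusted p = 0.0244). Positive differences numbered 21 of 24 for resection against sham, 21 for vagotomy against sham and 15 for vagotomy against resection, the last with a median of 0.097. Cx3cr1 had a lower mean after resection than in sham (2.71 ± 0.416 to 1.56 ± 0.52 FPKM), a difference that was not called. The sum of 10 neutrophil markers was 21.1 to 45.4 FPKM in sham, 215 to 307 FPKM after resection and 119 to 337 FPKM after vagotomy, and none of these was listed at 0. Of 8 tested, S100a8 rose after resection (20.8 ± 9.77 to 165 ± 45.5 FPKM, adjusted p = 0.0112) and was lower with vagotomy than with resection alone (165 ± 45.5 to 42.8 ± 15.3 FPKM, adjusted p = 0.0344), while 4 (S100a9, Retnlg, Mmp9 and Csf3r) rose with vagotomy against sham. The neutrophil markers did not share a direction between vagotomy and resection: 4 of 8 differences were positive, with a median of 0.11, and S100a9 stood at 45.4 ± 19.5 FPKM after resection and 140.4 ± 82.6 FPKM after vagotomy. The sums of 10 fibroblast markers (1826 to 2501, 1618 to 2158 and 1618 to 1918 FPKM) and of 8 endothelial markers (304 to 438, 354 to 446 and 395 to 436 FPKM) overlapped between groups, given in the order sham, resection and vagotomy. No fibroblast marker was called by limma (0, 3 and 4 of 10 at an unadjusted p under 0.05 in the 3 comparisons). Of 8 endothelial markers 1, Emcn, was called with vagotomy against sham, and was lower (28.8 ± 5.34 to 8.97 ± 1.52 FPKM, adjusted p = 0.0119). Emcn was also called lower with vagotomy than with resection alone, where it stood at 32.3 ± 8.53 FPKM. With vagotomy against sham 5 of the 8 endothelial differences were positive, with a median of 0.35, and 4 had an unadjusted p under 0.05. For Pecam1 the means were 32.8 ± 4.06 FPKM (sham) and 52.4 ± 3.93 FPKM (vagotomy), a difference that was not called. Of 10 heart muscle markers, 0 were called for resection against sham by limma (0 at an unadjusted p under 0.05), and 1 was higher and 2 lower with vagotomy against either other group. Myl3 was the higher one (898 ± 507 to 7663 ± 2616 FPKM, adjusted p = 0.0166, for vagotomy against resection), and the lower ones were Myh6 and Actc1, listed at 0 after vagotomy. After resection these 2 stood at 2433 ± 1206 and 5760 ± 2178 FPKM. No other of the 10 was listed at 0, and Myl2 stood at 3772 ± 852 FPKM after vagotomy. Whether the zeros are missing values was not tested, so these 2 calls are uncertain. Ctss divided by the macrophage sum was 0.0453 ± 0.0126 in sham, 0.0613 ± 0.00825 after resection and 0.118 ± 0.0108 after vagotomy, and the vagotomy libraries (0.111 to 0.13) lay above the others (0.0371 to 0.07), among which sham and resection overlapped. Ctsl divided by that sum was 0.577 ± 0.12 in sham, 0.289 ± 0.125 after resection and 0.396 ± 0.0638 after vagotomy, and the resection libraries lay below sham while the vagotomy libraries overlapped both. Ctsc divided by that sum was 0.0584 ± 0.0105, 0.0379 ± 0.0125 and 0.0429 ± 0.00723 in the same order, with the resection and vagotomy libraries below sham. After resection the 2 highest markers in the sum were Lyz2 (159 ± 46.9 FPKM) and Fcer1g (95.2 ± 41.8 FPKM). Their means were lower with vagotomy (131 ± 23.3 and 68.8 ± 26.3 FPKM). Neither fall was called, and Tyrobp rose, so these ratios depend on the markers summed. The part of these cells in the cathepsin results was not tested.

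Outside the 10 genes, no lysosomal gene of the lists below was called for resection against sham by limma. Of the 4 further cathepsin-related proteases tested, 0 were called by limma in any comparison, and 1, 3 and 0 had an unadjusted p under 0.05 for resection against sham, vagotomy against resection and vagotomy against sham. The legumain gene Lgmn, whose product processes cathepsins, stood at 66.4 ± 13.3 FPKM in sham, 142 ± 46.6 FPKM after resection and 84.8 ± 9.93 FPKM after vagotomy. The tissue-restricted cathepsin genes Ctsj, Ctsm, Ctsq, Ctsr, Cts3, Cts6 and Cts7 were listed at 0 for all groups in the authors' deposited tables. Of 9 other inhibitors tested, 0 were called for resection against sham, with a median log2 difference of 1.43 and 5 at an unadjusted p under 0.05, although limma's F-test for any difference called 4 of the 9. The stefin genes BC100530 (3.01 ± 1.03 to 17.8 ± 7.85 FPKM, adjusted p = 0.0579) and Stfa2 (3.84 ± 2.56 to 19.1 ± 5.47 FPKM, adjusted p = 0.0675) encode intracellular cathepsin inhibitors. Stfa2 was lower with vagotomy than with resection alone (19.1 ± 5.47 to 4.51 ± 1.79 FPKM, adjusted p = 0.0408), and Stfa3 rose against sham (2.73 ± 0.709 to 8.34 ± 2.22 FPKM, adjusted p = 0.0325). Stefin genes are near-identical copies, so reads may be split between them and their values are uncertain.

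Several lysosomal hydrolases and membrane proteins passed the test where vagotomy was compared with sham, a comparison in which 10.1% of all tested genes were called (5.81% higher). The shares of the proton pump, sorting and regulator lists, whose counts follow, were near that background. Of 34 tested glycosidases and lipid hydrolases, 0 were called after resection (4 at an unadjusted p under 0.05), 2 rose with vagotomy against resection and 7 rose and 1 fell against sham. The 2 were the acid nuclease gene Dnase2a (3.53 ± 0.769 to 24 ± 13.5 FPKM, adjusted p = 0.0173) and the aspartylglucosaminidase gene Aga (7.85 ± 1.21 to 22.5 ± 8.1 FPKM, adjusted p = 0.0349). The saposin precursor gene Psap, whose products help to degrade sphingolipids, rose against sham (139 ± 28.1 to 387 ± 115 FPKM, adjusted p = 0.0312). Of 20 tested membrane proteins, 5 rose and 2 fell against sham, among them Laptm5 of blood cells (3.49 ± 1.03 to 16.8 ± 4.2 FPKM, adjusted p = 0.00536) and Laptm4b (144 ± 26.8 to 33.1 ± 7.7 FPKM, adjusted p = 0.00444). The proton pump, which acidifies the lysosome, had 0 of 16 genes higher and 2 lower against sham, Atp6v1g1 (120.0 ± 46.7 to 24.5 ± 6.78 FPKM, adjusted p = 0.00959) and Atp6v1d (147 ± 35.9 to 54 ± 14 FPKM, adjusted p = 0.0193). With vagotomy against resection, 1 membrane protein gene rose (Laptm5) and 1 fell (Laptm4b), and Atp6v1g1 fell. Of 19 tested sorting genes, which carry enzymes from the Golgi to the lysosome, 1 rose (Nagpa) and 1 fell (Vps26a) against sham. Vps26a also fell against resection (39.9 ± 14.8 to 12.9 ± 4.14 FPKM). Of 18 tested regulators, 1 rose (Rptor, a subunit of the kinase complex mTORC1) and 1 fell (Zkscan3, a repressor of lysosomal genes), both against sham and against resection. Of 5 tested antigen-loading genes, Ifi30, a thiol reductase of the endosome, rose with vagotomy against sham (4.22 ± 2.34 to 20.7 ± 6.99 FPKM, adjusted p = 0.0166). The invariant chain gene Cd74, whose product cathepsin S trims, stood at 1.1 ± 0.099 FPKM in sham, 6.04 ± 3.49 FPKM after resection and 3.89 ± 2.93 FPKM after vagotomy, and was not called.

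**Figure D4:**
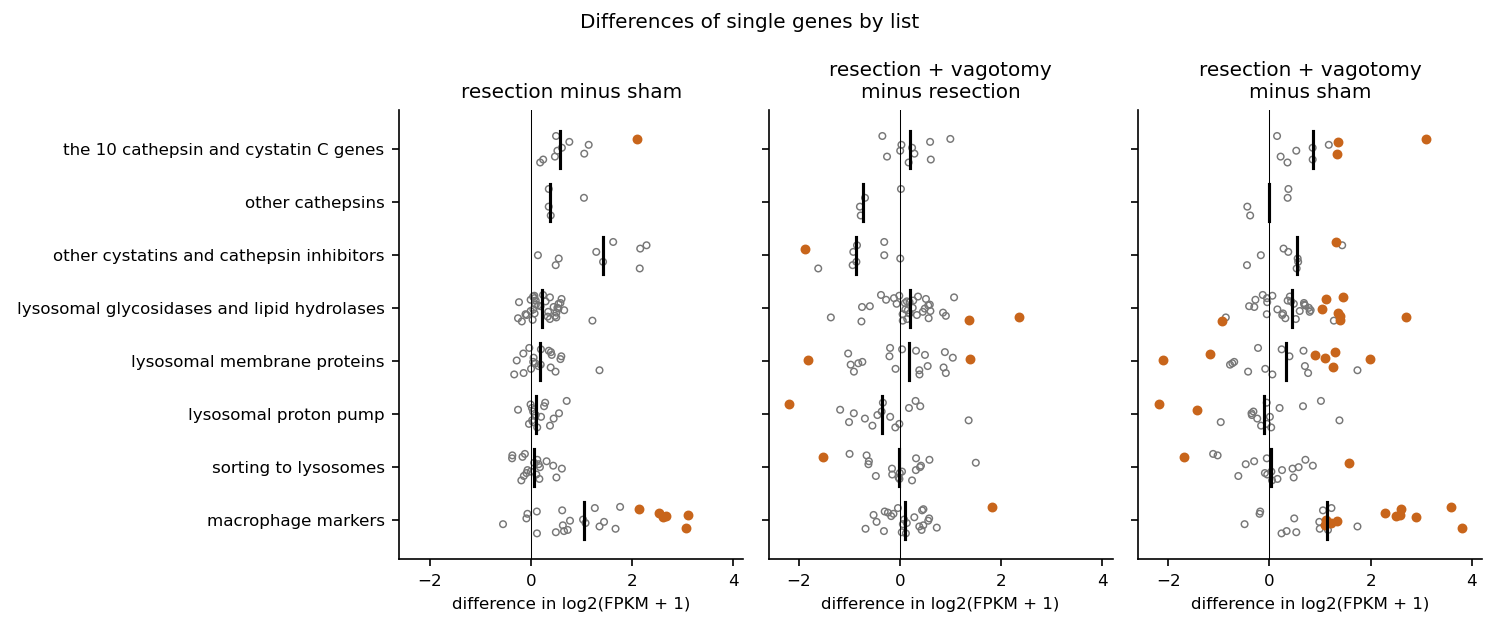
Each point is the difference in log2(FPKM + 1) of 1 gene of the named list in 1 comparison, filled orange where the adjusted p is under 0.05, and vertical bars are list medians. After resection against sham the filled points are Ctss in the top row and 6 macrophage markers, while vagotomy against sham fills points in both directions among hydrolases and membrane proteins.

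The genes most like Ctss over the 9 libraries, by Pearson correlation of log2(FPKM + 1), were C5ar1 (0.98), Ccl4 (0.976), Cyb561 (0.974) and Slc37a2 (0.967). For Ctsb they included Dpep2 (0.949), Fcer1g (0.949) and Spi1 (0.939). Ctsk was closest to Vwf (0.987), Amigo2 (0.949), Cxcl2 (0.908) and Acer2 (0.896), and Cst3 to Samd1 (0.966), Rps6ka1 (0.963), Ap2m1 (0.953) and Rxrb (0.951). These values describe 9 points that share group differences and library scaling, and each set was picked as the top of 13248 genes.

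Ctsk and Ctss are neighbours on chromosome 3, in the same orientation and 17423 bases apart. Within 100 kb on either side, 3 other protein-coding genes had deposited values. Arnt stood at 23.1 ± 0.684 FPKM in sham, 23.1 ± 6.33 FPKM after resection and 33.7 ± 11.9 FPKM after vagotomy. Golph3l stood at 17.03 ± 2.51, 17.98 ± 3.28 and 37.97 ± 15.7 FPKM in the same order, and Ensa at 82.6 ± 0.775, 85.2 ± 16.5 and 52.6 ± 25.05 FPKM. None of these 3 was called by limma between any pair of groups. The deposited loci of Ctsa, Ctsb, Ctsc, Ctsd, Ctss and Ctsz each hold at least 1 further gene, so their values are less certain. At the Ctss locus it is the pseudogene Hmgb1-ps5, with group values of at most 0.561 FPKM in the authors' deposited tables, and at the Ctsa locus Pltp (7.27 FPKM in sham and 31.2 FPKM after vagotomy) and Neurl2 (11.5 and 25 FPKM), also by those tables.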

How the data were processed

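The authors deposited a matrix of FPKM with a pseudocount of 1 added, and tables with group FPKM, p-values and q-values from Cuffdiff, per the file headers. The submitters' processing notes name TopHat2 2.0.9, Cufflinks 2.1.1, Cuffdiff 2.1.1 and GRCm38. The 1 was subtracted, genes were joined to symbols by identifier, and those averaging 1 FPKM or more were kept. The fit used log2(FPKM + 1) of all 9 libraries and limma 3.58.1 (R 4.3.3), with 1 mean per group and a mean-variance trend. The procedure was tested on simulated data with independent noise in each library, so that check does not cover effects shared between libraries. No counts were used, so depth and counting error are unknown. Positions came from GENCODE M21 (GRCm38).

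The 10 genes, the lists and the rule for named genes (in each list up to 4 with the smallest p per comparison and all called, and the 4 genes most like Ctss, Ctsk, Ctsb and Cst3) were chosen with earlier results of these data known. Some genes that the rule names are not reported here. The neighbours of Ctsk and Ctss, the ribosomal protein median, the ratios and the motifs were chosen after the values were seen. The lists share Acp5, Cd68 and Ctsg. Other settings tried were a pseudocount of 0.1 or 5, dropping the filter or raising it to 5 FPKM, upper-quartile and quantile scaling, fitting only the 6 libraries compared, variance moderation without the trend and in robust form, a block for replicate number, and single libraries left out.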

Additional observations from a re-analysis of the deposited data

How the results depend on the processing

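The number of the 10 genes called for resection against sham was 1 and became 0 with only the 6 libraries compared, and ranged from 0 to 1 when single libraries were left out. Between vagotomy and resection it was 0 and became 1 (Ctss) with a pseudocount of 5 and with the replicate block, and stayed 0 without each single library. Against sham after vagotomy, and for any difference among the 3 groups, it was 3 and ranged from 1 to 3 without single libraries. Over the 570 differences of single genes under an alternative, 542 kept their direction and side of the threshold, 9 lost the call, 3 gained it and 16 changed sign, none of which was called in either fit. With upper-quartile scaling and quantile normalization, the differences between vagotomy and resection changed sign for Ctsd (-0.0316 and -0.0412) and Ctsk (-0.00195 and -0.0197). Without single libraries they ranged from -0.10 to 0.16 for Ctsd, -0.12 to 0.71 for Ctsh, -0.20 to 0.48 for Ctsk, -0.65 to 0.0849 for Ctsz and -0.12 to 0.57 for Cst3. Likewise Cst3 ranged from -0.22 to 0.48 for resection against sham, and Ctsz from -0.0106 to 0.36 for vagotomy against sham. The cause was not tested. Same-numbered libraries of different groups deviated together with correlations of -0.0193 to 0.498. For numbers 1 and 2 the correlations were 0.141 to 0.498. The libraries titled replicate 3 carry different numbers in their descriptions and column names, and gave -0.0193 to 0.117. The labels name no shared litter or day, so pairing was neither assumed nor settled, and the replicate block used the titles' numbers. In 13 of 18 comparisons, each with the 3 libraries of another group, a library correlated best with its own number. With the replicate block, called genes over all tested went from 39 to 55, 466 to 1277 and 1334 to 2413 in the 3 comparisons, and the number among the 10 was 1, 1 and 3. The 39 genes called for resection against sham became 66 and 23 with pseudocounts of 0.1 and 5, 74 with robust moderation, 13 with only the 6 libraries compared and 11 to 59 without single libraries. The 466 between vagotomy and resection became 29 with only the 6 libraries and 42 to 591 without single libraries, and the 1334 against sham 100 to 1701 without single libraries. The depth of the libraries is unknown, so no limit from counting could be given for Ctsk and Ctss in sham.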
